A study of Homo sapiens with 6 samples.

Results

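STAT5A and STAT5B, the erythropoietin receptor gene EPOR and 7 genes that STAT5 is known to switch on (SOCS1, SOCS2, SOCS3, CISH, PIM1, PIM2 and PIM3) were followed in K562 cells with and without induced PCBP1. These 10 genes were picked by name, with earlier results of these data known, out of 62252 genes with a transcript in the deposited files. All 10 were abundant enough to be tested. K562 is a human erythroid leukemia line. The line used here descends from 1 clone with a lox-flanked cassette at the AAVS1 locus, into which Flag-PCBP1 under a tet-inducible promoter was exchanged, and the resulting population was kept polyclonal under puromycin. PolyA RNA was sequenced from 3 samples without doxycycline (−Dox) and 3 with it (+Dox). All 6 carry the cassette, and a line given Dox without Flag-PCBP1 was not analysed here, so an effect of Dox itself and an effect of Flag-PCBP1 cannot be told apart. The dose and duration of Dox behind these libraries are not given in the sources used here. No source says whether the replicates were separate cultures, so the p-values measure the spread between these 6 libraries. The summed estimated counts ran from 74766040 to 84177316 in −Dox and from 70905656 to 82449808 in +Dox.

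Erythropoietin binds EPOR on red cell precursors, EPOR activates the attached kinase JAK2, and JAK2 phosphorylates STAT5A and STAT5B, which enter the nucleus and bind DNA. In K562 the BCR-ABL fusion kinase is known to keep STAT5 phosphorylated without any cytokine. Among the best known STAT5 targets are CISH and SOCS1 to SOCS3, whose proteins bind the receptor or JAK and shut signaling down, and the PIM genes, which encode serine/threonine kinases that favor survival and growth. The mRNAs of these feedback genes and kinases are short-lived, and their levels are widely read as the output of the pathway. The libraries measure mRNA, and STAT5 phosphorylation was not measured in them.

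STAT5 binds the palindrome TTCNNNGAA. It was searched in RefSeq windows (GRCh38.p14) from 250 bases before to 50 bases after each annotated start site. The motif reads the same on both strands, so 1 match covers both. A window was found for 9 of the 10 genes, 12 windows in all, and the exception was SOCS2. Only 1 of the 12 windows, that of CISH, holds the motif, and it holds 4 copies that do not overlap. Of all 35116 windows, 7.66% hold at least 1 copy and 7 windows (0.0199%) hold at least 4. The CISH window lies on the minus strand at chr3:50611725-50612024, and it is shown because it carries the densest set of sites among these genes. Capitals mark the motif copies, read 5′ to 3′.
CISH promoter: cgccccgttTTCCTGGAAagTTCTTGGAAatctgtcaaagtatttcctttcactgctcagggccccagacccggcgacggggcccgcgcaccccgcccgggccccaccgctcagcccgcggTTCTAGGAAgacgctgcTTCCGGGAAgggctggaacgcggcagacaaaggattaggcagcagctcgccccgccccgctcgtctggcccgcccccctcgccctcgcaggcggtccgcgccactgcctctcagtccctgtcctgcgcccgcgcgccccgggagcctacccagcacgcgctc
The copies begin 241, 230, 129 and 112 bases before the start site, at chr3:50612007-50612015, chr3:50611996-50612004, chr3:50611895-50611903 and chr3:50611878-50611886. With the flanking bases on either side they read as follows.
CISH site 1: cccgttTTCCTGGAAagttct
CISH site 2: ggaaagTTCTTGGAAatctgt
CISH site 3: ccgcggTTCTAGGAAgacgct
CISH site 4: cgctgcTTCCGGGAAgggctg
These matches describe the sequence, and binding was not measured. Windows without a match say only that these letters are missing from 300 bases.

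With Dox, PCBP1 mRNA went from 248, 269.5 and 267 CPM to 1029.7, 936 and 1037 CPM, a 3.83-fold rise (edgeR adjusted p of 5.22e-10; CPM are counts scaled to the size of each library with TMM factors). Reads from the cassette and from the endogenous gene cannot be told apart. STAT5A, STAT5B, SOCS1, SOCS2, SOCS3, CISH, PIM1 and PIM2 were lower in +Dox, EPOR was higher, and PIM3 did not pass the test. Calls were made at an adjusted p under 0.05 in edgeR's quasi-likelihood test, run on 21045 genes with a mean count above 10. Of the 10 genes, 8 were called lower and 1 higher, where 7.68% of all tested genes were called lower, 8.16% higher and 15.8% in either direction. The median log2 fold change of the 10 genes was −0.49 against 0.0061 for all tested genes. As the 10 genes were chosen with earlier results of these data known, this contrast is not an independent test. The +Dox values lay wholly below the −Dox values for the same 8 genes, against 15.8% of all genes, and wholly above for EPOR. Over all genes the groups did not overlap in 33.2%. SOCS1 was the only one of the 10 to pass the limits of the study for a differentially expressed gene (DEG), which also ask for an absolute log2 fold change above 1. DEGs made up 1.46% of all tested genes. An exact permutation test of 3 against 3 libraries cannot give a two-sided p below 0.1, and each of the 9 genes whose groups were apart reached that value.

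**Figure D1:**
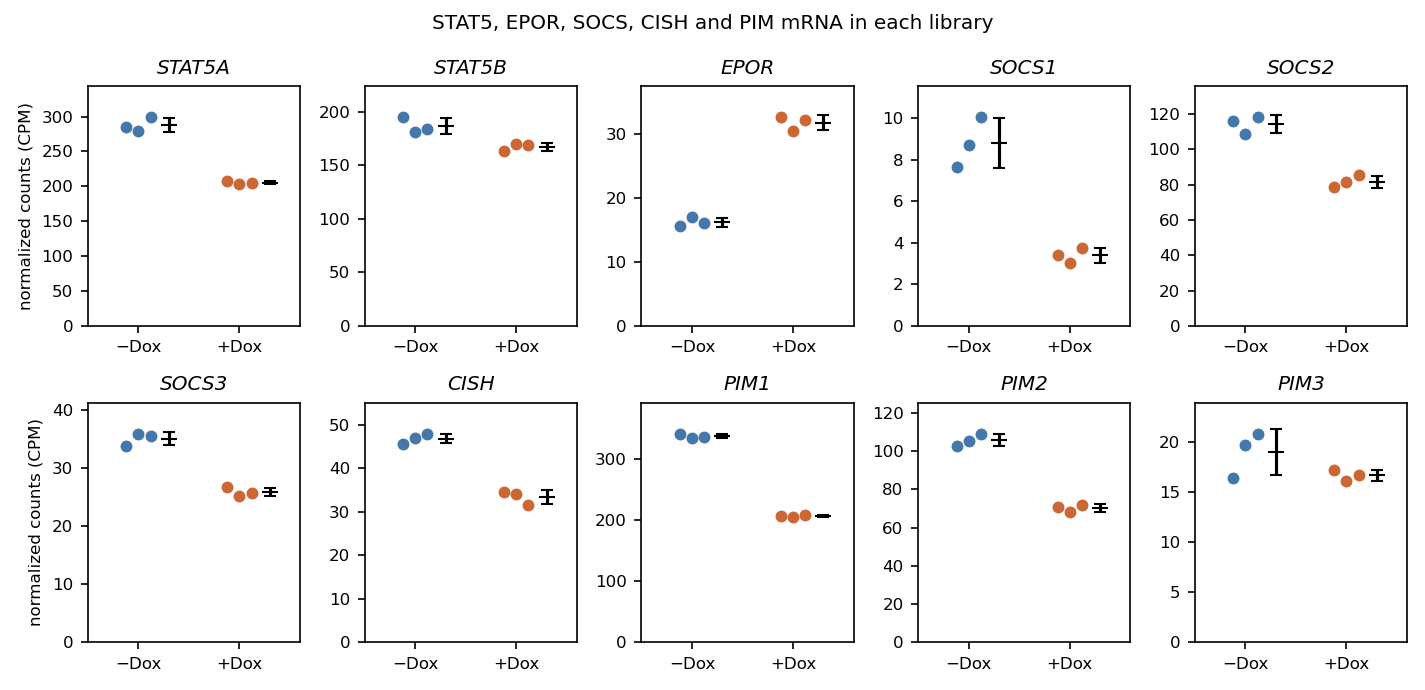
Normalized counts (CPM, axes from 0) of the 10 genes in each library; points are −Dox (blue) and +Dox (orange) replicates, and the bars give mean ± SD (n = 3). The groups are apart in 9 panels, with EPOR alone higher in +Dox, and overlap for PIM3.

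STAT5A (ENSG00000126561.18; GRCh38 chr17:42287547-42311943, plus strand), a DNA-binding transducer of the pathway, was at 285, 279 and 299 CPM in −Dox and at 207, 203 and 205 CPM in +Dox. The +Dox libraries were closely grouped and well under the lowest −Dox library. STAT5A fell by 28.8%, a log2 fold change (log2FC, +Dox over −Dox) of −0.49 (standard error, SE, 0.045, edgeR adjusted p of 1.59e-05). Its neighbor STAT5B (ENSG00000173757.11; chr17:42199176-42288633, minus strand), the other STAT5 protein, was at 195, 181 and 183 CPM in −Dox and at 163, 169 and 169 CPM in +Dox. These groups lay close together without overlapping. STAT5B had a log2FC of −0.16 (SE 0.046, edgeR adjusted p of 0.0345), and this call was lost in 8 of 14 alternatives, including each fit without 1 library (adjusted p between 0.0541 and 0.115).

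The paralogs are alike in sequence, and a part of the reads may be assigned to either. On opposite strands their exons share 415 bases, which is 6.5% of the exon bases of STAT5A and 3.43% of those of STAT5B. How reads were split between them was not tested. Summed TPM (a measure of abundance corrected for the length of each transcript) was 133, 117 and 127 in −Dox and 92.4, 96.8 and 88.8 in +Dox. Every +Dox library was again below every −Dox library. This sum and the ratio below count all annotated forms, coding or not. The ratio of STAT5A to STAT5B in TPM went from 2.23 ± 0.165 to 1.71 ± 0.0606 (SD, n = 3; exact permutation p = 0.1), with no overlap between the groups.

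EPOR (ENSG00000187266.14; chr19:11377207-11384342, minus strand), the cytokine receptor at the head of the pathway, moved the other way. It was at 15.6, 17.0 and 16.1 CPM in −Dox and at 32.6, 30.5 and 32.2 CPM in +Dox. Each +Dox library was far above the highest −Dox library. This is 1.96-fold, a log2FC of 0.97 (SE 0.060, edgeR adjusted p of 6.52e-07). EPOR was number 28 of the 21045 genes by p. Its log2FC sat at the edge of the DEG limit of 1, between 0.94 and 1.003 over the alternatives. The neighbor RGL3 shares 2 exon bases with EPOR and had a log2FC of 0.31 (edgeR adjusted p of 0.505).

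The feedback inhibitors among the 10 genes, SOCS1, SOCS2, SOCS3 and CISH, were all lower with Dox. SOCS1 (ENSG00000185338.7; chr16:11254417-11256204, minus strand) encodes an inhibitor that blocks the JAK kinase domain. It was at 7.66, 8.73 and 10.1 CPM in −Dox and at 3.40, 3.04 and 3.76 CPM in +Dox. The −Dox libraries were spread out, but the lowest of them was still above every +Dox library. SOCS1 fell by 61.4%, a log2FC of −1.37 (SE 0.127, edgeR adjusted p of 1.85e-05), from 648 to 751 estimated counts per library down to 241 to 305.

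SOCS2 (ENSG00000120833.14; chr12:93569814-93583487, plus strand), best known for dampening growth hormone signaling, was at 116, 109 and 118 CPM in −Dox and at 78.5, 81.2 and 85.2 CPM in +Dox. It fell by 28.5%, a log2FC of −0.48 (SE 0.052, edgeR adjusted p of 6.10e-05). The antisense gene SOCS2-AS1 covers 4.28% of its exon bases and averaged 6.28 CPM without and 5.65 CPM with Dox (edgeR adjusted p of 0.411), far below SOCS2 in both groups.

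SOCS3 (ENSG00000184557.4; chr17:78356778-78360077, minus strand), which inhibits JAK at gp130-type receptors and is also a STAT3 target, was at 33.7, 35.8 and 35.4 CPM in −Dox and at 26.7, 25.2 and 25.7 CPM in +Dox. The groups were apart by more than the range within either. SOCS3 fell by 26.1%, a log2FC of −0.44 (SE 0.055, edgeR adjusted p of 2.20e-04).

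CISH (ENSG00000114737.16; chr3:50606489-50611774, minus strand), whose protein docks on the phosphorylated receptor and whose promoter is printed above, was at 45.7, 46.8 and 47.9 CPM in −Dox and at 34.5, 34.0 and 31.6 CPM in +Dox. It fell by 28.7%, a log2FC of −0.49 (SE 0.055, edgeR adjusted p of 9.12e-05). MAPKAPK3, which runs the other way, overlaps 4.31% of the CISH exon bases and had a log2FC of −0.17 (edgeR adjusted p of 0.0736). The 4 inhibitor genes together had a summed TPM of 106, 96.3 and 108 in −Dox and of 70.7, 72.6 and 70.9 in +Dox, which is 0.691 times the −Dox mean. SOCS2 made up 65.0 ± 1.14% of that sum in −Dox and 66.7 ± 1.03% in +Dox (SD, n = 3; exact permutation p = 0.2).

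Of the PIM kinases, PIM1 and PIM2 fell, while PIM3 did not pass the test. PIM1 (ENSG00000137193.14; chr6:37170152-37175428, plus strand) was at 341, 334 and 336 CPM in −Dox and at 206, 205 and 208 CPM in +Dox. Both groups were tight, with a gap many times their spread. PIM1 fell by 38.8%, a log2FC of −0.71 (SE 0.041, edgeR adjusted p of 3.67e-07), and was number 22 of the 21045 genes by p, the smallest p among the 10 genes.

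PIM2 (ENSG00000102096.10; chrX:48913182-48919024, minus strand), a kinase that like PIM1 is active once translated, was at 103, 105 and 109 CPM in −Dox and at 70.5, 68.0 and 72.0 CPM in +Dox. It fell by 33.6%, a log2FC of −0.59 (SE 0.048, edgeR adjusted p of 6.48e-06). PIM3 (ENSG00000198355.5; chr22:49960768-49964072, plus strand), the third of the PIM kinases, was at 16.4, 19.7 and 20.8 CPM in −Dox and at 17.2, 16.1 and 16.7 CPM in +Dox. Here −Dox replicate 1 lay among the +Dox libraries. The log2FC was −0.19 (SE 0.085, 95% interval −0.37 to −0.0031, edgeR adjusted p of 0.167). Without −Dox replicate 1 it was −0.28 (edgeR adjusted p of 0.0155), and without −Dox replicate 3 it was −0.12 (edgeR adjusted p of 0.475). With an offset for transcript length it was −0.074 (edgeR adjusted p of 0.696).

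PIM TPM summed over the 3 genes was 241, 217 and 234 in −Dox and 133, 143 and 134 in +Dox, or 0.592 times the −Dox mean. PIM1 held 70.9 ± 0.909% of this sum in −Dox and 66.4 ± 0.249% in +Dox (SD, n = 3; exact permutation p = 0.1), with no overlap.

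**Figure D2:**
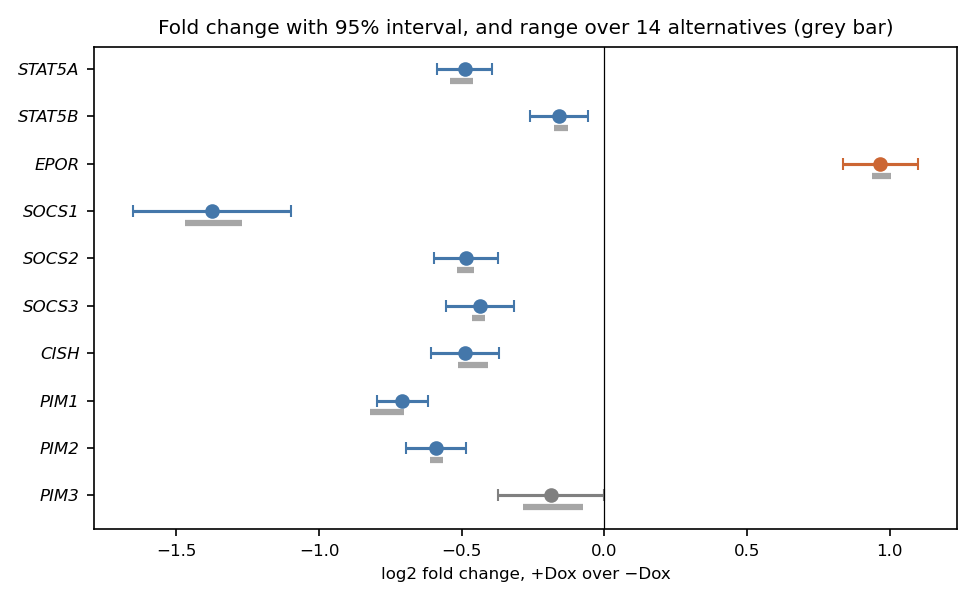
Log2 fold change (+Dox over −Dox) of the 10 genes with its 95% interval from edgeR; blue points were called lower, orange higher and grey not called. The thick grey bars span the values under all 14 alternatives, none of which crosses 0, from −1.47 to −1.27 for SOCS1 and from −0.28 to −0.074 for PIM3.

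Levels were compared between genes in TPM. In −Dox the order from high to low was PIM1 (164 ± 9.98), STAT5A (86.8 ± 6.20), SOCS2 (67.2 ± 4.87), PIM2 (57.7 ± 2.54), STAT5B (39.0 ± 2.87), CISH (16.5 ± 0.493), SOCS3 (12.3 ± 0.225), PIM3 (9.38 ± 0.813), EPOR (7.46 ± 0.179) and SOCS1 (7.28 ± 0.823; SD, n = 3). The ranges of neighbors in this order overlapped only for EPOR and SOCS1. In +Dox the first 5 kept their places, at 90.8 ± 3.74 TPM for PIM1, 58.5 ± 3.01 for STAT5A, 47.6 ± 0.887 for SOCS2, 37.2 ± 1.33 for PIM2 and 34.2 ± 1.22 for STAT5B. EPOR moved up from rank 9 to rank 6, at 14.1 ± 0.383 TPM, above CISH (12.2 ± 0.747), SOCS3 (8.87 ± 0.247), PIM3 (8.71 ± 0.0463) and SOCS1 (2.76 ± 0.126). There the ranges of SOCS3 and PIM3 overlapped. The ratio of EPOR to PIM1 in TPM was 0.0442, 0.0476 and 0.0450 in −Dox and 0.160, 0.152 and 0.154 in +Dox.

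Transcript shares describe how the reads of each gene were divided over its annotated forms. For 80 annotated transcripts of the 10 genes, 25 held on average at least 10% of the TPM of their gene. SOCS3 was carried by a single transcript, and SOCS1 (85.0% on SOCS1-201), PIM2 (83.2% on PIM2-201), PIM3 (88.9% on PIM3-201), CISH (79.2% on CISH-201) and PIM1 (71.7% on PIM1-201) each had a dominant coding form. EPOR was spread over the coding EPOR-201 (44.7%) and EPOR-208 (18.4%), the decay-prone EPOR-207 (16.8%) and the intron-retaining EPOR-203 (16.0%). The main forms were STAT5A-209 (24.2%) for STAT5A, STAT5B-201 (28.3%) for STAT5B and SOCS2-207 (28.1%) for SOCS2. Intron-retaining forms included STAT5B-208 (12.5%) and STAT5A-204 (10.8%). The coding share of EPOR was close in both groups, at 62.7 ± 1.33% in −Dox and 63.4 ± 4.92% in +Dox (SD, n = 3). That of STAT5A was 72.8% in −Dox and 77.1% in +Dox, and that of STAT5B was 39.6% and 42.8%. Coding STAT5A forms went from 63.1 to 45.1 mean TPM. For STAT5B, coding forms went from 15.4 to 14.7 mean TPM and intron-retaining forms from 18.7 to 14.8. These class sums were not tested.

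The share of each transcript was tested by limma on the log2 ratio of its TPM to that of the rest of the gene, with 0.1 TPM added. Of 36139 transcripts tested in all genes, 0.0636% were called at an adjusted p under 0.05. Of the 47 tested transcripts of the 10 genes 0 were called by limma, and 11 had an unadjusted p under 0.05, beside 3011 of the 36139. Among the 11 is SOCS3-201, whose ratio rests on the added TPM alone. Shares of PIM1, CISH and PIM3, whose main forms had unadjusted p under 0.05, are given as values only. STAT5A-209 moved from 20.8 ± 5.52% to 27.6 ± 6.74%, with overlapping groups. PIM1-201, the full coding form, held 67.3%, 69.4% and 67.5% of PIM1 in −Dox and 75.4%, 75.0% and 75.4% in +Dox. The short forms PIM1-203 and PIM1-202, with no annotated coding sequence, went from 52.4 to 22.5 TPM together, while PIM1-201 went from 111 to 68.3 TPM. CISH-203, an intron-retaining form, held 23.0 ± 0.671% in −Dox and 18.6 ± 1.44% in +Dox. PIM3-202, also intron-retaining, went the opposite way, from 6.81 ± 0.716% to 15.4 ± 1.75% (SD, n = 3), or from 0.636 to 1.34 TPM, and its coding partner PIM3-201 had the smallest p of the 47 (adjusted p = 0.262 by limma).

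**Figure D3:**
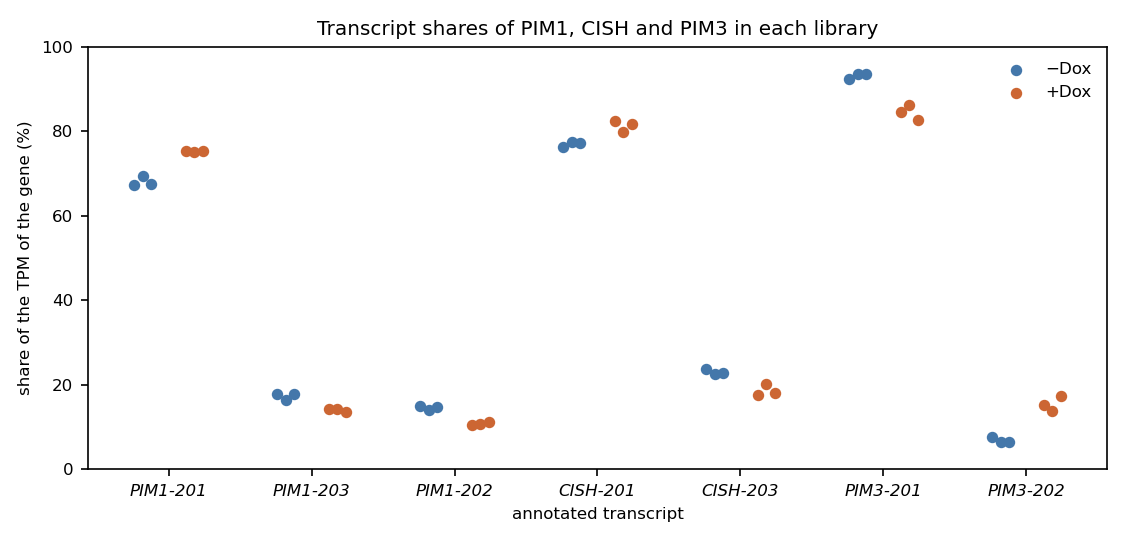
Share of the TPM of the gene (%, axis from 0 to 100) held by annotated transcripts of PIM1, CISH and PIM3; points are −Dox (blue) and +Dox (orange) replicates. The coding forms PIM1-201 and CISH-201 hold more in +Dox and PIM3-201 less, and no share passed the adjusted test.

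Other genes of the pathway were taken from lists written from general knowledge, with earlier results of these data known, and are given by their counts. Other reported STAT5 targets were mostly lower, with 8 of 13 tested genes called lower and 0 higher and a median log2FC of −0.34, beside 7.68% of all genes lower and 8.16% higher. Fits with an offset for transcript length called 6, in edgeR and in DESeq2 with a filter of a summed count above 10. Over all genes these fits called 8.95% and 10.5%. MYC, a growth-promoting transcription factor, was at 152, 147 and 153 CPM in −Dox and at 96.9, 94.6 and 88.3 CPM in +Dox. That is a log2FC of −0.69 (SE 0.049, edgeR adjusted p of 2.15e-06). CCND1, which encodes cyclin D1, was at 16.5, 16.4 and 17.1 CPM against 8.79, 7.49 and 9.10 CPM. Its log2FC was −0.98 (SE 0.085, edgeR adjusted p of 1.01e-05), so the level was close to 0.507 times that of −Dox. MCL1, an anti-apoptotic BCL2 relative, fell by 27.3%. ID1, an inhibitor of helix-loop-helix factors, fell by 26.4%, and CCND2, encoding cyclin D2, fell by 23.1%.

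Among the other called targets, named after their values were seen, BCL2L1, the survival gene that STAT5 induces in erythroblasts, had a log2FC of −0.27 (edgeR adjusted p of 0.00846) and TFRC one of −0.34. IGF1 was called at only 9 to 28 counts in −Dox and 1 to 7 in +Dox. The targets not called were CCND3 (0.15), BCL6 (0.36), ERFE (0.34), IREB2 (−0.084) and PODXL (0.18), with adjusted p between 0.0956 and 0.801 by edgeR, and OSM had too few counts to be tested. BCL6 is a gene that STAT5 is known to repress.

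Of the kinases, other STATs and adaptors upstream of STAT5, 3 of 20 were called higher and 0 lower, with a median log2FC of 0.038. Called in either direction were 15.8% of all genes, so this share is near the background. GAB1, a docking adaptor, was at 17.1, 16.6 and 13.1 CPM in −Dox and at 25.6, 26.0 and 23.2 CPM in +Dox (log2FC 0.68, SE 0.092, edgeR adjusted p of 3.81e-04). The coactivator NCOA1 (0.28) and STAT6 (0.17) were the others called. With an offset for transcript length, edgeR called 0 of the 20, and 8.95% of all genes. DESeq2 with the offset and also another filter, a summed count above 10, called 2, and 10.5% of all genes. JAK2, the kinase of EPOR, had a log2FC of 0.15 (edgeR adjusted p of 0.0964), and the adaptor CRKL had one of −0.13 (adjusted p = 0.0504). ABL1 and BCR, whose entries also take up reads of the BCR-ABL fusion, had log2FC values of 0.022 (SE 0.055) and 0.069 (SE 0.055), with adjusted p of 0.843 and 0.457 by edgeR. ABL1 and BCR are named after their values were seen.

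Cytokine receptors were represented by 11 tested genes of 18. LEPR (−0.25), IFNGR1 (−0.23) and KIT (−0.45) were called lower and 0 were called higher, with a median of 0.00091, where 7.68% of all genes were lower. KIT, the stem cell factor receptor, was at 6.19, 7.52 and 8.11 CPM in −Dox and at 5.75, 4.33 and 5.88 CPM in +Dox (edgeR adjusted p of 0.0420). Only 1 receptor was called without −Dox replicate 2 or without +Dox replicate 2, fits that called 10.9% and 11.8% of all genes. The interferon receptor chains IFNAR1 (0.13) and IFNAR2 (0.13) were not called.

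In the list of other negative regulators, 4 of 18 genes were called lower and 1 higher (median −0.0075), beside 7.68% and 8.16% of all genes. The phosphatase genes PTPRC (−0.32) and PTPN1 (−0.26) and the adaptor SH2B3 (−0.36), which restrains JAK2, were lower. SOCS4 (−0.20) was also called lower, close to the threshold (edgeR adjusted p of 0.0447) and with overlapping groups. SOCS5, SOCS6 and SOCS7, named here after their values were seen, were not called. SH2B3 was at 62.2, 55.4 and 62.0 CPM in −Dox and at 44.1, 45.8 and 50.5 CPM in +Dox (edgeR adjusted p of 0.00267). USP18, an interferon-induced regulator, was higher (1.17, edgeR adjusted p of 0.00944) at a low level, with 39 to 43 counts in −Dox and 77 to 116 in +Dox.

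PIM substrates gave 3 genes higher and 1 lower of 12, with a median of 0.013, beside 8.16% higher and 7.68% lower over all genes. With an offset for transcript length, edgeR called 2 of the 12, and 8.95% of all genes. DESeq2 with the offset and also a filter of a summed count above 10 called 3, and 10.5% of all genes. The genes higher in +Dox were CDC25C (0.31), a cell cycle phosphatase, FOXO3 (0.44), a transcription factor, and CDKN1B (0.25), a CDK inhibitor, while AKT1S1 (−0.24) was lower and BAD (0.24) was not called. Subunits of the ubiquitin ligase that SOCS proteins assemble with gave 0 calls of 6 by edgeR and by DESeq2, and the smallest unadjusted p was 0.0790, where 15.8% of all genes were called. Their log2FC values lay between −0.098 for ELOC and 0.083 for CUL5, with ELOB, RBX1 and CUL2 between them.

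**Figure D4:**
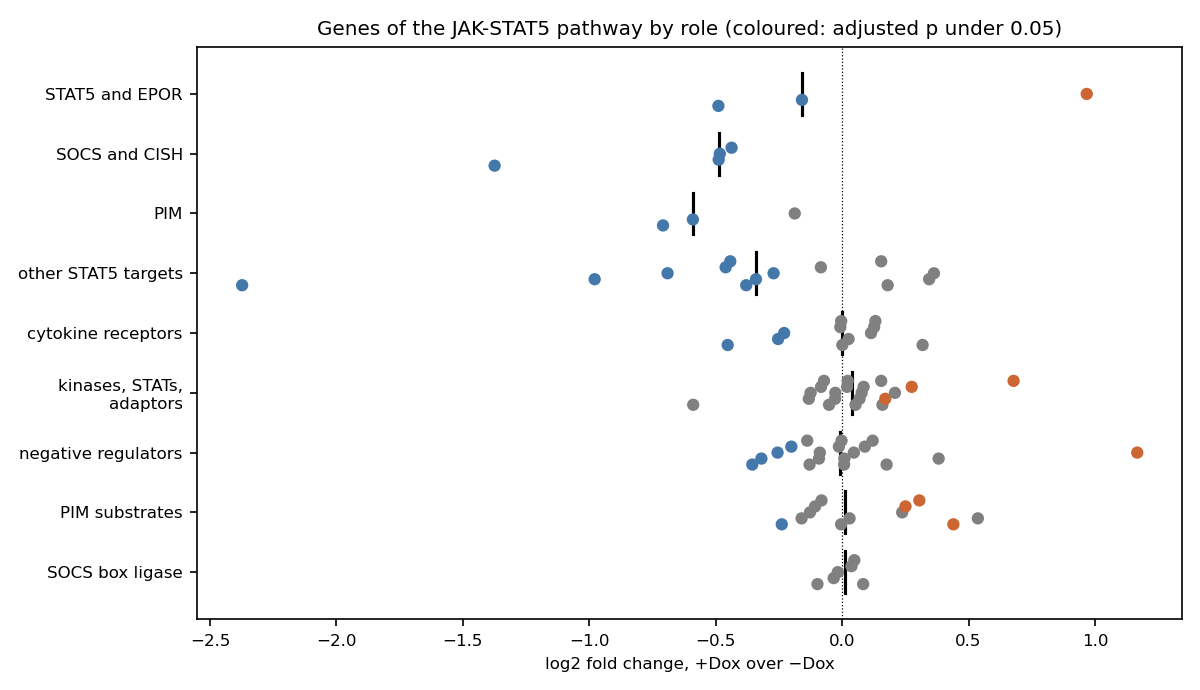
Log2 fold change (+Dox over −Dox) of each tested gene by role; colored points passed an adjusted p of 0.05 (blue lower, orange higher), grey points did not, and the black bar is the median of the list. The medians of the SOCS and CISH, PIM and other target lists are −0.49, −0.59 and −0.34, with 4 of the other targets right of 0, and that of STAT5A, STAT5B and EPOR is −0.16. The medians of the receptor, kinase, regulator, substrate and ligase lists lie between −0.0075 and 0.038.

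PIM1 was used to look for genes of like pattern, as the gene with the smallest p. Among 9288 other genes with a mean of at least 10 CPM, the highest Pearson correlations of log2 CPM over the 6 libraries were those of ARHGAP21 (0.999), DDX24 (0.998) and ENSG00000276900 (0.998). As the groups differ, any gene that separates them scores high, and 57 genes passed 0.99. ARHGAP21 had a log2FC of −0.43, DDX24 of −0.25 and ENSG00000276900 of −0.93.

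The identity of the cells was checked on 11 erythroid markers and 12 markers of other lineages. All 11 erythroid markers were above 1 TPM in every library. HBG2 was the most abundant, and their summed level was 20801, 21105 and 20187 TPM in −Dox and 20316, 20295 and 19824 TPM in +Dox. Of the 11, which include EPOR and the STAT5 target TFRC, 4 were called higher, 2 lower and 5 were not called. Over all tested genes 8.16% were called higher and 7.68% lower. The erythroid transcription factor genes TAL1 (log2FC 0.44, edgeR adjusted p of 8.34e-05) and KLF1 (0.46, edgeR adjusted p of 0.00121) were higher in +Dox, while the embryonic globin gene HBZ was lower (−0.40, edgeR adjusted p of 0.00213). The factor genes GATA1 (0.12, edgeR adjusted p of 0.113) and NFE2 (−0.10, edgeR adjusted p of 0.171), named after their values were seen, were not called. Of the other lineage markers, 9 were under 1 TPM in all libraries, with MS4A1 at 0 counts in all 6. Their summed level was 146, 163 and 182 TPM in −Dox and 117, 113 and 145 TPM in +Dox, nearly all from LYZ and CD3D. LYZ was called lower (−0.47, edgeR adjusted p of 0.00837). The part that a shift in cell state or a subpopulation plays in the values of the 10 genes was not tested, and in bulk RNA fewer expressing cells and less RNA per cell cannot be told apart.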

How the data were processed

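The authors quantified paired-end 150-cycle reads with Salmon 1.10.2 and deposited, per transcript and library, estimated counts (not scaled) and TPM (scaled for effective length). Salmon's effective lengths served for length offsets. Index, strand and bias settings are not given in the sources used here, so overlapping genes on opposite strands and paralogs may share reads. Of 252045 transcripts, 251612 matched GENCODE 44; the 433 others were left out and held 0.125% to 0.138% of counts. Estimated counts were summed per gene, rounded and tested with edgeR 4.0.16 (quasi-likelihood, TMM factors 0.974 to 1.03, two-sided, Benjamini-Hochberg) in R 4.3.3; standard errors are the log2 fold change over the root of F. The study used DESeq2. Transcript shares were tested with limma 3.58.1 where a mean of 1 TPM and 10 counts was reached.

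Alternatives were DESeq2 1.42.0, length offsets, other size factors and filters, each library left out, and a replicate block. On simulated data with log2 shifts of 1 and 2, 200 of 200 changed genes and 11 unchanged were called. Smaller shifts of genes were not simulated. For transcript shares, 30 of 100 shifts of 1.5 and 89 of 100 shifts of 3 in the log2 ratio were called, with 9 unchanged. The 10 genes, lists and tests were chosen with earlier results of these data known. Genes named are the 10, PCBP1, transcripts with at least 10% of a gene, up to 5 genes per list by p and overlapping genes; others are marked. Protein sequences were not analysed here. The values of 1 marker gene are not reported here.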

Additional observations from a re-analysis of the deposited data

How the results depend on the processing

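Over 14 alternatives the 10 genes kept their direction in all 140 values and their side of the threshold in 131. The exceptions were STAT5B, lost in 8 (adjusted p up to 0.120 with the replicate block), and PIM3, called without −Dox replicate 1. PCBP1 stayed between 1.90 and 1.98. Between 8 and 9 of the 10 genes were called in every alternative. Genes called over the whole table were 3333. This count was 1883 with an offset for transcript length in edgeR and 2288 to 3338 with 1 library left out. DESeq2 with the offset and also a filter of a summed count above 10 called 2908 of 27717 genes. DEGs were 515 with all genes of any count and 235 to 320 with 1 library left out, against 308. With the length offset, edgeR called 0 kinases, other STATs and adaptors, 2 PIM substrates and 6 other targets. DESeq2 with the offset and the filter on the summed count called 2, 3 and 6. With 1 library left out, the counts were 1 to 3 cytokine receptors, 2 to 4 kinases, other STATs and adaptors, 4 to 6 negative regulators, 7 to 8 other targets, 3 to 4 PIM substrates and 0 ligase subunits. Transcripts with changed usage were 23, and 15 with 1 TPM added, 5 at a mean of 5 TPM, 80 with no minimum TPM, 26 to 49 with 1 library left out and 0 with the replicate block; 0 transcripts of the 10 genes were called in any of these. The causes were not tested. Deviations from the group mean correlated at 0.00031, −0.206 and −0.0216 between same-numbered libraries, for replicates 1, 2 and 3. Differently numbered libraries gave −0.155 to 0.179. With 3 libraries in each group, these values cannot decide whether the replicate numbers pair the libraries. The replicate block called 2490 genes and 8 of the 10. SOCS1, at 241 to 751 counts per library, is the least deeply covered of the 10 genes.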
